A study of Mus musculus with 6 samples.

Results

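B2m encodes beta2-microglobulin, the light chain of MHC class I molecules, and the m6A levels described here are those of its RNA in mouse HCICs, which are cultured liver cells able to start hepatocellular carcinoma and were taken from DEN-treated male mice. The positions were chosen by location alone, as every listed position of chromosome 2 between 121978168 and 121983564 in GRCm39 (counted from 1), the gene body of B2m on the plus strand. This interval of 5397 bases held 27 of the 567667 rows in the table. Nanopore direct RNA sequencing was run on 6 samples, 3 with wildtype Mthfd1l (MTH-WT) and 3 with Mthfd1l knockout (MTH-D), each group numbered 1 to 3. MTH-D lines were single-cell colonies selected after lentiviral CRISPR-Cas9 with guides against Mthfd1l, and MTH-WT lines were colonies that had received the empty vector, so all lines received a vector that encodes Cas9. The study describes 3 parental lines, each from its own mouse, 1 from a control mouse and 2 from DKI mice, which bear knock-in alleles of both Mdm2 and Mdmx and keep wild-type p53. Which number belongs to which origin or line is not stated in the sample labels. The study describes only a very small deletion in the MTH-D cells of the line HCIC-2 and used the other 2 lines for its later experiments. For its m6A sequencing it names pairs of MTH-WT and MTH-D cells from those 2 lines. The labels number 3 samples in each group, and whether these are 3 separate lines is not stated. All samples were labelled as batch 1. The table holds no expression values, so neither the loss of Mthfd1l nor the identity of the cells could be checked in it.

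MHC class I molecules show peptides from inside the cell to CD8+ T cells, and a heavy chain reaches the cell surface stably only when it is bound to beta2-microglobulin. N6-methyladenosine (m6A) is written onto mRNA mainly by the METTL3-METTL14 complex, which prefers the motif DRACH and takes its methyl group from S-adenosylmethionine (SAM), and reader proteins that bind it can alter the stability and translation of an mRNA. MTHFD1L is a mitochondrial enzyme that produces formate, a source of one-carbon units for the methionine cycle and thereby for SAM. The comparison of MTH-D with MTH-WT asks whether losing this enzyme changes m6A on B2m RNA.

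Direct RNA sequencing reads the native RNA in the pore, and each value is the fraction of m6A at a position in a sample, given here in percent. Read numbers are not listed, and none was estimated from the values. The values limit them in part, if each is a share of modified reads among all reads. Position 121981356 of B2m, at 0.01% in MTH-WT sample 1, would then need many reads. Values at the positions highest in m6A could come from far fewer. No counting interval was computed, and an exact 0 cannot be told apart from a low level seen in few reads. Averaged over every listed row, MTH-WT samples had 6.96% ± 0.451 m6A (SD, n = 3) and MTH-D samples 6.84% ± 0.733 (SD, n = 3). The labels do not say that same-numbered samples share a culture, and p-values below measure only the spread between these samples.

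The listed B2m positions lay in 4 groups, where a gap of over 300 bases opened a new group. The first held 3 positions, 58 to 96 bases from the start of the gene body, and spanned 39 bases. The second, 3092 bases further on, held 14 positions at 3188 to 3452 bases and spanned 265 bases. The third was a single position at 3966 bases, and the last held 9 positions at 4982 to 5394 bases, spanning 413 bases. For comparison, the B2m transcript of GENCODE M21, which is placed on the older build GRCm38, has 4 exons of 119, 279, 29 and 433 bases, separated by introns of 3068, 495 and 975 bases. No annotation or genome of GRCm39 was used here, so no position was assigned to an exon, to the coding region or to a UTR, and no sequence was read at a position. B2m stood alone in the table, with the nearest listed positions 39253 bases before the gene body and 81787 bases after it, so moving the ends of the interval by some kilobases would add no position.

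Most B2m positions carried little m6A. Averaged over the 6 samples, 15 of 27 were under 2% and 9 lay between 2% and 10%, while 3 averaged at least 10%, which is 11.1% of the B2m positions beside 14.3% of all listed rows. These 3 positions all lay in the second group. Of the summed m6A of the gene they held 71.7% ± 3.88 (SD, n = 3) in the wildtype samples and 75.8% ± 2.21 (SD, n = 3) in the knockout samples. In the first group the highest mean over the 6 samples was 3.35%, the single position of the third group averaged 0.0883%, and the last group reached 5.79%. Position 121981569 averaged 9.13% and lay just under the 10% line, whereas position 121981522, the lowest above it, averaged 26.6%.

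**Figure D1:**
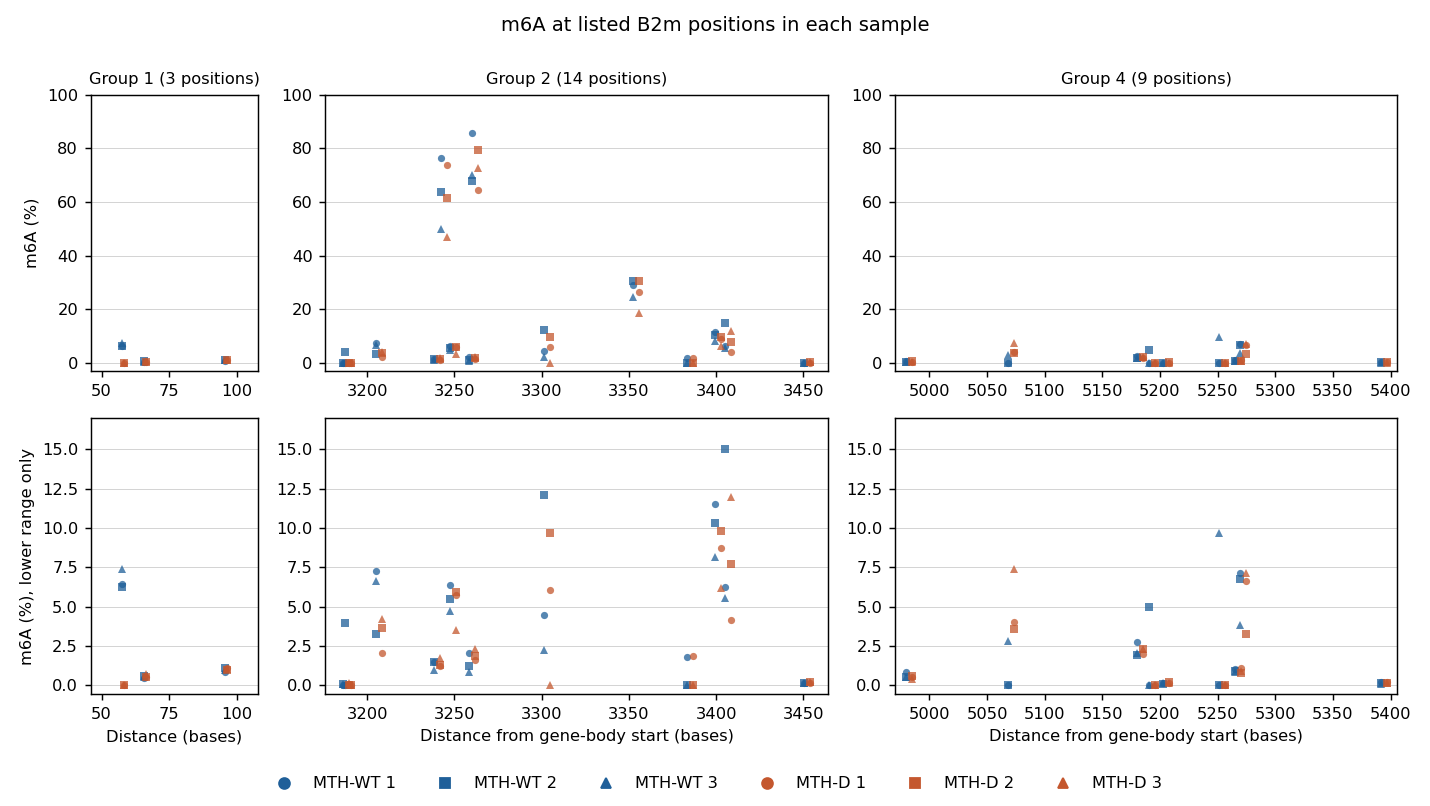
m6A in percent (y axis) against distance from the start of the gene body in bases (x axis) for the first, second and last group of listed B2m positions, with the full range above and the lower range below. Blue marks are MTH-WT samples, orange marks MTH-D samples, shapes give the sample number, and small sideways shifts separate the groups; the single position of the third group, at 0.0883% on average, is not drawn. Only 3 positions, all in the second group, average at least 10%.

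The major position, that is the position with the highest mean in MTH-WT, was 121981430, at 3262 bases from the start of the gene body. Its m6A was 85.7%, 67.7% and 70% in MTH-WT samples 1, 2 and 3, and 64.4%, 79.5% and 72.6% in MTH-D samples 1, 2 and 3. The highest value was the MTH-WT sample numbered 1 and the lowest the MTH-D sample of the same number, and the groups overlapped. MTH-WT samples averaged 74.5% ± 9.82 (SD, n = 3) and MTH-D samples 72.2% ± 7.53 (SD, n = 3). Since MTH-WT values chose this position, that difference is a description. The same position also had the highest mean over all 6 samples, a choice that does not depend on the groups, and on this footing the difference of -2.29 points was within both SDs. A two-sided exact permutation test gave p = 0.70, and with 3 samples in each group its lowest possible p is 0.10. Within numbers the direction was not shared. MTH-D minus MTH-WT was -21.3 points for number 1, 11.8 points for number 2 and 2.55 points for number 3. Numbers 1 and 3 alone, which the labels do not tie to particular lines, had means of 77.9% in MTH-WT and 68.5% in MTH-D. They differed by -9.36 points, with p = 0.667 by the exact permutation test, whose lowest possible p is 0.333 with 2 samples in each group. The sign turned when either sample numbered 1 was dropped, to 3.34 points without the MTH-WT one and 1.57 points without the MTH-D one.

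Against the 24810 rows of the whole table that averaged at least 50% m6A, the major position varied more than most among MTH-WT samples and was nearer the middle among MTH-D samples. The SD among MTH-WT samples had a median of 5.10 points over these rows, and 15.9% of them had an SD at or above the 9.82 points of the major position. Among MTH-D samples the median was 6.13 points, and 37.5% of the rows were at or above its 7.53 points. In the samples numbered 1 their median difference was -1.39 points, and 1.87% of them had a difference at or below the -21.3 points seen at the B2m position. In the samples numbered 2 the median was 0.56 points, and 8.06% of the rows had a difference at or above 11.8 points. For number 3 the median was -1.79 points, with 23.5% of the rows at or above the 2.55 points of B2m. The difference of the group means, -2.29 points, was near the middle, with 34.1% of the rows at or below it.

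The second highest position, 121981412, lies 18 bases before the major one. Its m6A was 76.5%, 63.6% and 50% in MTH-WT samples 1, 2 and 3 and 73.7%, 61.5% and 47.1% in MTH-D samples 1, 2 and 3. Here each MTH-D sample lay close under the MTH-WT sample of its number, while the numbers themselves stood far apart. Wildtype samples averaged 63.4% ± 13.2 (SD, n = 3) and knockout samples 60.8% ± 13.3 (SD, n = 3), and the difference of -2.61 points was far within these SDs (exact permutation test, p = 0.70). Taken within numbers it was -2.61 ± 0.448 points (SD of 3 differences), lower in 3 of 3 numbers (exact sign-flip permutation test, p = 0.25, the smallest that 3 pairs allow). Read numbers are not listed, so whether these differences exceed counting error was not tested. Rows averaging at least 50% had median differences of -1.39, 0.56 and -1.79 points in the samples numbered 1, 2 and 3, and the B2m differences of -2.79, -2.10 and -2.94 points had 40.7%, 29.4% and 42.5% of those rows at or below them. At this position the MTH-D sample numbered 1 was above its own value at the major position, 73.7% against 64.4%, and in the other 5 samples the major position was the higher.

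Position 121981522, 92 bases after the major one, was the third with at least 10% m6A. It stood at 29.0%, 30.6% and 24.4% in MTH-WT samples 1, 2 and 3 and at 26.4%, 30.6% and 18.7% in MTH-D samples 1, 2 and 3. The samples numbered 2 were nearly level and the samples numbered 3 were the lowest of each group. Means of 28.0% ± 3.21 (SD, n = 3) and 25.2% ± 6.02 (SD, n = 3) gave a difference of -2.78 points that did not exceed the spread (exact permutation test, p = 0.60). Without the MTH-D sample numbered 3 it turned to 0.483 points. MTH-D was lower in 3 of 3 numbers, by amounts that differed from -0.06 to -5.73 points.

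Positions beside the high ones stayed low. Position 121981428, which lies 2 bases before the major position, ranged from 0.84% to 2.27% over the 6 samples, and position 121981417, between both high positions, from 3.49% to 6.40%. In DRACH the adenosine follows an A or a G and is followed by a C. At most 1 of position 121981428 and the major position can therefore be such an adenosine on the same strand, and the bases there were not read. The neighbouring bases 121981356 and 121981357 are both listed, and since a DRACH adenosine must be followed by a C, at most 1 of them can be such an adenosine on the same strand. The former was between 0.01% and 0.14% in every sample, and the latter was 3.92% in the MTH-WT sample numbered 2 and listed at 0 in the other 5 samples.

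At several positions the samples numbered 3 were the lowest, a pattern picked out after the values were seen. Among the 8 B2m positions averaging at least 5%, the samples numbered 3 were the lowest of both groups at 5, which is 62.5%, compared with 24.4% of the 117241 rows at that level in the whole table. These 5 were 121981412, 121981417, 121981471, 121981522 and 121981569. They all lie in the second group of positions and share reads, so they are not replicates and these shares carry no test. Without the limit of 5%, the samples numbered 3 were the lowest of both groups at 6 of the 27 B2m positions, or 22.2%, beside 9.69% of all rows. On that footing the samples numbered 1, or those numbered 2, were the lowest of both groups at 0 of the 27 B2m positions. Over all rows their shares were 6.41% and 4.15%.

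**Figure D2:**
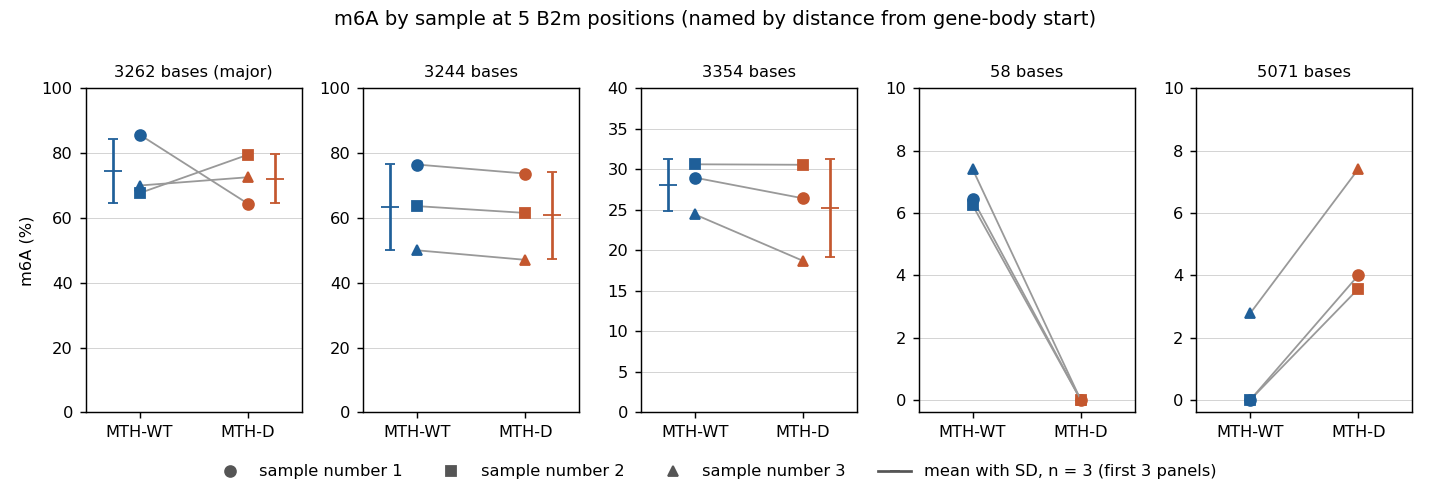
m6A in percent (y axis, scaled separately) in MTH-WT and MTH-D samples at 5 B2m positions, named by their distance in bases from the start of the gene body; lines join samples of the same number, and horizontal marks with bars in the first 3 panels are group means with SD (n = 3). At 3244 bases the lines run nearly parallel, at 3262 bases they cross, and at 58 and 5071 bases the groups do not overlap.

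No B2m position was called in a limma test of every row on the log2 odds of m6A with Benjamini-Hochberg adjustment (0 of 27 at an adjusted p under 0.05, beside 0% of all 567667 rows). At an unadjusted p under 0.05 there were 2 of 27, beside 3.22% of all rows. These 2 positions were low in m6A, and both include values listed at exactly 0.

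The first of them was 121978226, at 58 bases from the start of the gene body. It was listed at 6.45%, 6.25% and 7.41% in MTH-WT samples 1, 2 and 3 and at 0 in all 3 MTH-D samples. The groups did not overlap, and the other 2 positions of the first group, at 66 and 96 bases, stayed between 0.46% and 1.07% in all 6 samples. On the log2 odds scale with 1 point added to each share the difference was -3.04 (SE 0.236), which ranked 18 of 567667 rows by unadjusted p and missed the threshold after adjustment (limma, adjusted p = 0.117, and 0.874 with the replicate block). A difference on this scale depends on the points added where a group is at 0. The read number at this position is not given, so how many modified reads separate the groups could not be counted. The exact permutation p was 0.10, the smallest possible. All MTH-D values lay below all MTH-WT values at 1 of 27 B2m positions, beside 2.88% of all rows. A listing of 0 in all 3 MTH-D samples with at least 5% in all 3 MTH-WT samples occurred at 70 rows of the table, and the opposite listing at 72 rows.

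The second was 121983239, at 5071 bases, and it went the other way. It was listed at 0, 0 and 2.78% in MTH-WT samples 1, 2 and 3 and at 4%, 3.57% and 7.41% in MTH-D samples 1, 2 and 3. The groups again did not overlap, and the samples numbered 3 were the highest of both. On the same scale the difference was 1.95 (SE 0.609; limma, adjusted p = 0.939), with an exact permutation p of 0.10. All MTH-D values lay above all MTH-WT values at 1 of 27 B2m positions, beside 2.79% of all rows.

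An m6A fraction of exactly 0 was listed for at least 1 sample at 7 B2m positions, or 25.9%, against 63.6% of all rows. The number of B2m positions at 0 was 4, 3 and 3 in MTH-WT samples 1, 2 and 3 and 4, 5 and 6 in MTH-D samples 1, 2 and 3. Over all rows, exact zeros made up 30.3%, 40.2% and 35.3% in the MTH-WT samples and 29.6%, 35.4% and 34.0% in the MTH-D samples, with no higher share in MTH-D. At 3 B2m positions, or 11.1% against 16.7% of all rows, a single sample was above 0, in each case an MTH-WT sample. These were 121981357, described above, 121983361 with 5% in the sample numbered 2, and 121983422 with 9.68% in the sample numbered 3. Position 121981553 was above 0 only in the samples numbered 1, at 1.79% in MTH-WT and 1.85% in MTH-D.

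Averaged over its 27 positions, B2m m6A was 9.35%, 8.82% and 7.50% in MTH-WT samples 1, 2 and 3 and 7.87%, 8.30% and 6.99% in MTH-D samples 1, 2 and 3. MTH-D was the lower within each number, but 2 MTH-D samples were above the MTH-WT sample numbered 3, so the groups overlapped. The means were 8.56% ± 0.950 (SD, n = 3) and 7.72% ± 0.667 (SD, n = 3), and the difference of -0.84 points did not exceed the larger SD (two-sided exact permutation test, p = 0.30). Within numbers it was -1.48, -0.521 and -0.514 points (exact sign-flip permutation test, p = 0.25, the smallest that 3 pairs allow). The largest of these, in the samples numbered 1, contains the -21.3 points of the major position. Without the position at 58 bases the difference was -0.614 points (exact permutation test, p = 0.40).

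The 24 positions under 10% taken alone averaged 2.55%, 3.18% and 2.43% in MTH-WT samples 1, 2 and 3 and 1.99%, 2.19% and 2.10% in MTH-D samples 1, 2 and 3. These groups did not overlap, and differed by -0.624 points (exact permutation test, p = 0.10, a split chosen after the values were seen). The values listed at 0 enter this difference directly. In the 17 of these positions with no value of exactly 0, a restriction that removes position 121978226 and the others at 0 by its construction, the groups overlapped, with wildtype samples at 2.62% ± 0.431 (SD, n = 3) and knockout samples at 2.32% ± 0.208 (SD, n = 3), and the difference was -0.303 points (exact permutation test, p = 0.30).

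Set beside the rest of the table, B2m was above the middle in m6A level. The genome was divided into windows as long as the B2m gene body, and 16930 of them held at least 10 listed positions. Window bounds were counted from the start of the B2m gene body, so B2m fills a whole window. The other windows follow no gene bounds and may cut or join genes, so the shares below are not a place among genes. The mean of 8.14% over the 6 samples in B2m was above 66.9% of these windows, whose median was 4.25%. Its highest position, at 73.3% on average, was above the highest position of 68.8% of them. In MTH-D minus MTH-WT, the -0.84 points of B2m were beside a median of -0.0597 points, with 9.14% of windows below B2m. In the samples numbered 1, 2 and 3 the shares of windows below B2m were 9.59%, 14.6% and 29.1%. In a limma fit of all windows on the log2 odds scale the B2m difference was -0.14 (SE 0.142; adjusted p = 1.00 after rounding), and 0 of 16930 windows, or 0%, were called. At an unadjusted p under 0.05 there were 2.25% of windows, and B2m was not among them (limma, unadjusted p = 0.335).

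**Figure D3:**
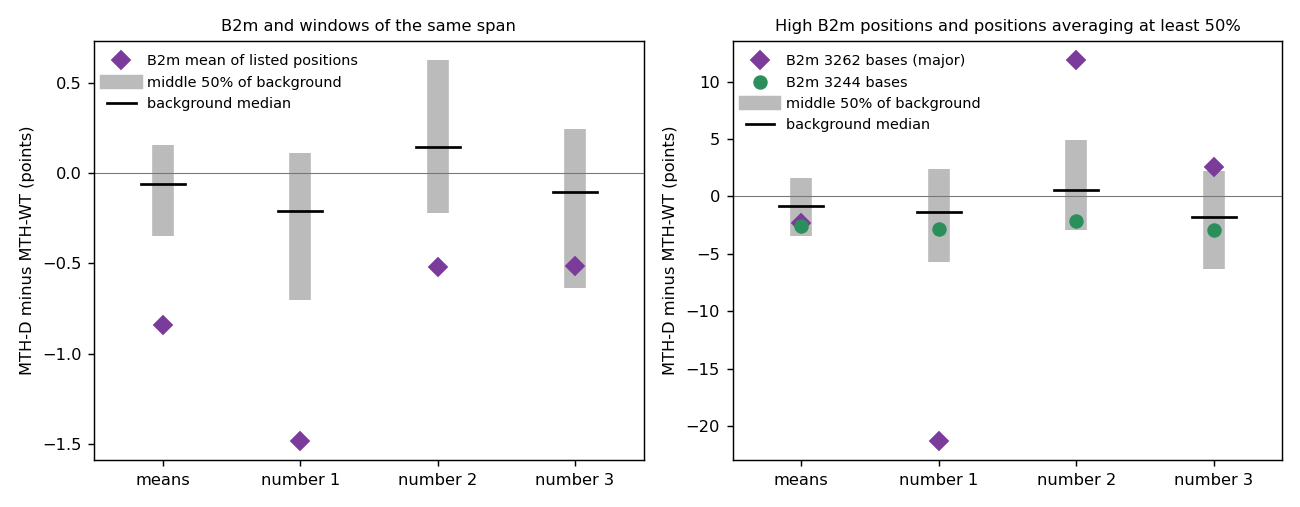
Difference of MTH-D from MTH-WT in percentage points (y axis) for the group means and for each sample number (x axis). Grey bars span the lower to the upper quartile and black lines mark the median of 16930 windows of the same span (left) or of 24810 rows averaging at least 50% m6A (right); diamonds and circles are B2m. The B2m mean is below 0 in all 3 numbers, at -1.48, -0.521 and -0.514 points, while the major position runs from -21.3 to 11.8 points.

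MTH-D was lower than MTH-WT in all 3 numbers at 4 of the 27 positions, or 14.8%, against 7.99% of all rows, and higher in all 3 at 1 position, or 3.70%, against 6.59% of all rows. The 4 were 121978226, 121981412, 121981522 and 121981569. The last of them stood at 11.5%, 10.3% and 8.16% in MTH-WT samples 1, 2 and 3 and at 8.74%, 9.84% and 6.17% in MTH-D samples 1, 2 and 3, a difference of -1.76 points that was of the size of the SDs of 1.71 and 1.88 points (exact permutation test, p = 0.40). By sample number, MTH-D was lower at 14, 14 and 11 of the 27 positions in the samples numbered 1, 2 and 3, which is 51.9%, 51.9% and 40.7%, where the whole table had 46.3%, 35.1% and 40.3%. Ties count as neither lower nor higher. MTH-D equalled MTH-WT at 14.8%, 14.8% and 11.1% of the B2m positions in numbers 1, 2 and 3. Over all rows these shares of ties were 16.4%, 24.5% and 20.7%. Positions of 1 gene share their reads and are not replicates, so these counts carry no test.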

How the data were processed

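Direct RNA libraries were prepared from 1000 ng of RNA per sample and sequenced for up to 72 h. The deposited table holds, for each chromosome position and sample, the fraction of m6A (0 to 1) as the authors computed it, with no strand, read number or gene name. The submitters' processing notes name minimap2 2.26, SAMtools and GRCm39. The tool that called m6A and the minimum read number per position are not given in the sources used here.

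Fractions were multiplied into percent. File positions count from 0, since on the first 59 Mb of chromosome 4 93.8% of 9029 rows fell on an exonic DRACH adenosine that way and 0.875% when counted from 1, and 1 was added to print them. Single values were compared by two-sided exact permutation tests. All rows were fitted with limma 3.58.1 (R 4.3.3) on log2 odds with 1 percentage point added to each share, with Benjamini-Hochberg adjustment, and the windows in the same way. The fit was tested on simulated data, in which it called few of the changed single positions and most of the changed windows. A lack of calls at single positions therefore does not show that they were unchanged. Whether the window fit would call a difference as small as the -0.14 of B2m on the log2 odds scale was not tested. Python 3.11.15, numpy 2.4.6 and pandas 2.3.3 were used for the rest. Samples with the same number were taken as pairs, since their deviations from the group means correlated over 81446 positions averaging at least 10% (0.164, 0.223 and 0.133 for numbers 1, 2 and 3). Named positions were the major position, those averaging at least 10%, those within 5 bases of the major one, the first and last listed ones, and those with an unadjusted limma p under 0.05. Others named in the text were chosen after their values were seen. The gene, the lists and the tests were chosen with earlier results of these data known. The planned fit by gene and the list of antigen presentation genes needed an annotation of GRCm39 and were not analysed here, and windows replaced them.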

Additional observations from a re-analysis of the deposited data

How the results depend on the processing

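The difference between MTH-D and MTH-WT at the major position kept its direction in 6 of the 8 alternatives that could change its value. Leaving out 1 sample at a time gave values from -5.96 to 3.34 points, above 0 without the MTH-WT sample numbered 1 (3.34) or the MTH-D sample numbered 1 (1.57). The same procedure gave -9.30 to 4.24 points at position 121981412, above 0 without the MTH-WT sample numbered 1 (3.94) or the MTH-D sample numbered 3 (4.24), and -5.45 to 0.483 points at position 121981522, above 0 without the MTH-D sample numbered 3 (0.483). The cause was not tested. The mean over B2m positions stayed below 0 in 14 of 14 such alternatives, from -2.56 to -0.303 points (exact permutation p from 0.10 to 0.80). With the replicate block, that is with samples paired by number, this difference was -0.84 points (exact sign-flip permutation p = 0.25), and the block changed no other call. limma called 0 B2m positions in each of 12 alternatives, with the smallest adjusted p for B2m between 0.0637 and 1.00, and between 0 and 2 had an unadjusted p under 0.05. Over the alternatives the difference was -6.93 to -6.35 points at position 121978226 and 2.86 to 4.99 points at position 121983239, whose unadjusted p was no longer under 0.05 without any 1 of the MTH-D samples, without the MTH-WT sample numbered 2, or with numbers 1 and 3 alone. The window difference stayed between -0.23 and -0.08 on the log2 odds scale in the 8 alternatives that could change it. Restriction to DRACH adenosines or to exons, and the fit by gene with its alternatives, were not run, as no genome or annotation of GRCm39 was used here. Read numbers were neither listed nor estimated, so whether differences of the size seen here exceed counting error was not tested.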
